A study of Mus musculus with 25 samples.

Results

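The comparison set out here asks whether 20% mannose in the drinking water changed the liver transcriptome of mice on a steatohepatitis-inducing regimen in the way it changed that of mice on normal diet. It uses 11 of the 25 bulk liver RNA-seq libraries of the study, in 4 groups chosen by their labels. FAT-MASH is a regimen of chow whose content is 21.1% fat, 1.25% cholesterol and, as sugar, 41% sucrose, together with drinking water that held fructose at 23.1 g/L and glucose at 18.9 g/L, and 1 intraperitoneal injection of carbon tetrachloride (CCl4) a week. The first pair of groups was FAT-MASH without mannose (n = 3) and FAT-MASH with 20% mannose (w/v) over all 12 weeks, the prevention schedule (n = 3). The second pair was normal diet (LabDiet 5053) without mannose (n = 2) and normal diet with 20% mannose for 12 weeks (n = 3). All mice were male C57BL/6J, started at 8 weeks of age and were studied at 20 weeks, housed 3 to 5 per cage. The sample labels used here name no cage, so mice of a group may have shared one. The tests count each mouse as independent. The labels do not say whether mice on normal diet were injected. FAT-MASH combines diet, sugar water and a hepatotoxin, so the term diet below stands for the whole regimen.

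For each gene the log2 fold change with mannose was estimated on FAT-MASH and on normal diet, each inside its own labelled batch, and the second was subtracted from the first. This difference is called the interaction. A positive value means that the change with mannose was more positive on FAT-MASH than on normal diet. A gene was called when its Benjamini-Hochberg adjusted p from edgeR's quasi-likelihood test was under 0.05. Levels are given as CPM, library-size-scaled counts, on the TMM scale, so they compare libraries for 1 gene and not 1 gene with another. The FAT-MASH pair carries the label of the first batch and the normal-diet pair that of the second, so in the interaction the regimen and the batch cannot be told apart.

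As background, mannose enters hepatocytes through hexose transporters and is phosphorylated by hexokinases. Mpi, phosphomannose isomerase, converts mannose-6-phosphate to fructose-6-phosphate, whereas Pmm1 and Pmm2, the phosphomannomutases, lead it towards GDP-mannose and protein glycosylation. Dietary fructose is taken up by Slc2a5 and Slc2a2 and phosphorylated by Khk, ketohexokinase, and its flux feeds hepatic lipogenesis in part through the sugar-sensing transcription factor ChREBP, encoded by Mlxipl.

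Library totals were 35583150 to 56010646 counts on FAT-MASH, 40810557 to 50081298 on FAT-MASH with mannose, 48067427 and 49752882 on normal diet, and 43800506 to 46435976 on normal diet with mannose. The 8 hepatocyte markers summed to 75946 to 128764 CPM over the 11 libraries. In bulk liver, fewer cells of a type and less RNA per cell cannot be told apart. The normal-diet controls, numbered 4 and 5 here, differed from each other by more than 2-fold at 242 of 10304 genes with a mean of at least 5 CPM (2.35%), against 42 to 157 genes for every other replicate pair of the 4 groups and of the first-batch normal-diet livers. Replicate 3 of FAT-MASH with mannose had summed cholangiocyte markers of 549 CPM, against 226 and 240 in replicates 1 and 2, and recruited-macrophage markers of 1175 CPM, against 555 and 604. Summed adipocyte markers were 21.3 and 122 CPM in the normal-diet controls, 132 to 238 with mannose, 26.1 to 40.3 on FAT-MASH and 63.8 to 79.3 on FAT-MASH with mannose. Because the control pair is small and uneven, the 3 normal-diet livers of the first batch are shown beside it. For 797 of the 1211 genes called in the interaction, their mean lay nearer to the normal-diet livers with mannose than to the second-batch controls. The calls were made with those controls, which favours this, and the share over all genes is not given here. With the first-batch livers as the control, 888 genes were called and 495 of these were among the 1211, although mannose and batch then cannot be told apart on normal diet. Every one of the 109 called genes chosen for description kept the sign of its interaction under that control, and 67 kept the call. That fit shares every library of the contrast except the 2 controls, so a kept sign was favoured and is no independent support.

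Of 21373 genes tested, 1211 (5.67%) were called in the interaction. The interaction was positive for 483 (2.26%) and negative for 728 (3.41%). On FAT-MASH alone 2707 genes were called (12.7%), of which 1227 rose (5.74%) and 1480 fell (6.92%) with mannose. On normal diet 32 were called (0.15%), of which 9 rose (0.0421%) and 23 fell (0.108%). The normal-diet comparison rests on 2 controls and had a median standard error of 0.33 per gene, against 0.30 on FAT-MASH. Both standard errors use a spread estimated from all 25 libraries, so they do not measure that of the 2 controls. Fitted within its own batch alone, the normal-diet comparison held 1 call. With all 25 libraries fitted, it held 2250 genes at an unadjusted p under 0.05, against 5134 on FAT-MASH. The FAT-MASH calls were 1735 without replicate 2 of the mannose group. Without normal-diet replicate 4, 524 genes were called in the interaction, and without replicate 5, 1184. The interaction calls were also 741 without replicate 2 of FAT-MASH with mannose, and 807 without FAT-MASH replicate 2. Without both libraries that stood apart, normal-diet replicate 4 and replicate 3 of FAT-MASH with mannose, 489 were called. The 32 normal-diet calls became 3 to 17 without FAT-MASH replicate 1 or 2, replicate 1 or 2 of either mannose group, or normal-diet replicate 4, and 131 without normal-diet replicate 5. Scaling by library totals alone shifted the median interaction of all genes from -0.00091 to 0.23 and turned the split to 1425 positive and 375 negative among 1800 calls.

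Most interaction calls were genes that moved on FAT-MASH. Of the 1211, 1002 (82.7%) were also called on FAT-MASH, 27 on normal diet and 191 in neither effect alone. The 2 estimates had opposite signs for 1041 genes. Over all genes tested, 10811 had estimates of opposite and 10251 of the same sign, and a call on the difference of 2 estimates favours opposite signs, so nothing is read from the 1041. Of these, 603 were lower with mannose on FAT-MASH and higher on normal diet, and 438 the reverse. A further 117 genes with a negative interaction had lower estimates in both diets, and 40 with a positive interaction had higher estimates in both. The larger of the 2 estimates was the one on FAT-MASH for 1001 genes. The remaining 1705 genes called on FAT-MASH were not called in the interaction, which does not show that they changed alike in both diets.

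**Figure D1:**
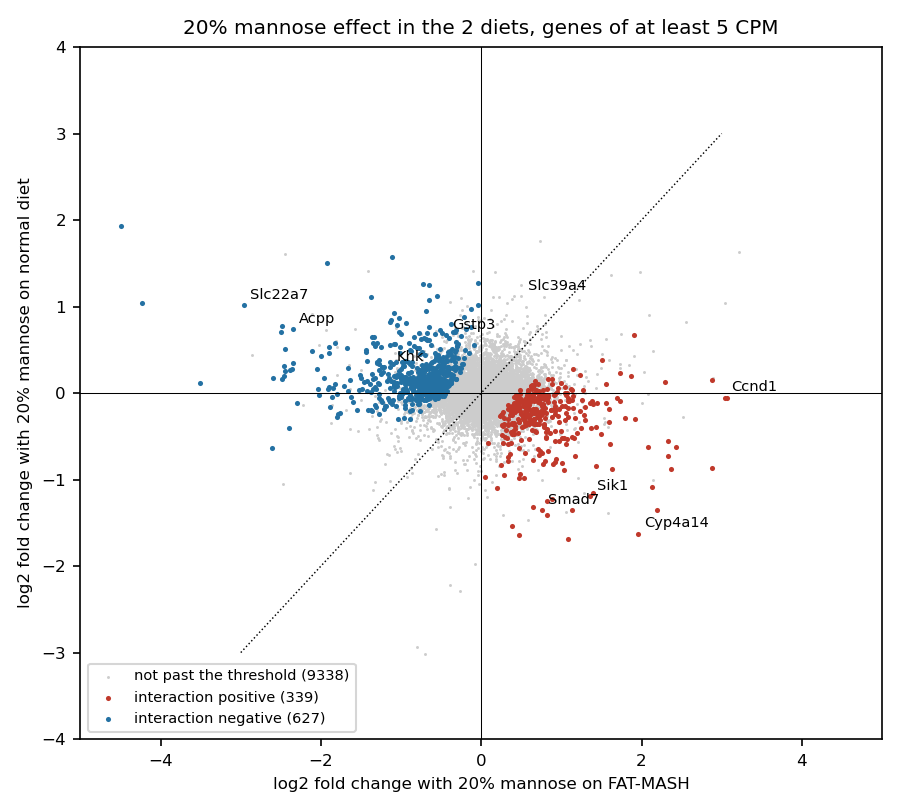
Log2 fold change with 20% mannose on FAT-MASH (x axis) against that on normal diet (y axis) for 10304 genes with a mean of at least 5 CPM over the 11 libraries. Red and blue points are genes called with a positive (339) or negative (627) interaction, the dotted line marks equal change in both diets, and 2 genes lie outside the axes. Blue points spread to the left and red points to the right along the x axis.

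Across these 10304 genes the estimates of the 2 diets had a Pearson r of -0.10 and a Spearman rank correlation of -0.055, a description over genes, which are not independent replicates. Known liver pathways were grouped into 31 lists holding 601 distinct tested genes. Of these 601, 112 (18.6%) were called in the interaction and 212 (35.3%) on FAT-MASH. Among all genes tested 5.74% rose and 6.92% fell on FAT-MASH, the shares to set beside each list's rises and falls. No list member was called on normal diet by edgeR, where 82 had an unadjusted p under 0.05 and DESeq2 called 3, Plk1, Usp18 and Fabp4. The plot of list medians shows the effects by list. The widest gap between the diets was in the cell cycle list, followed by inflammatory signalling and NRF2 targets, in each of which the FAT-MASH median lay higher.

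**Figure D2:**
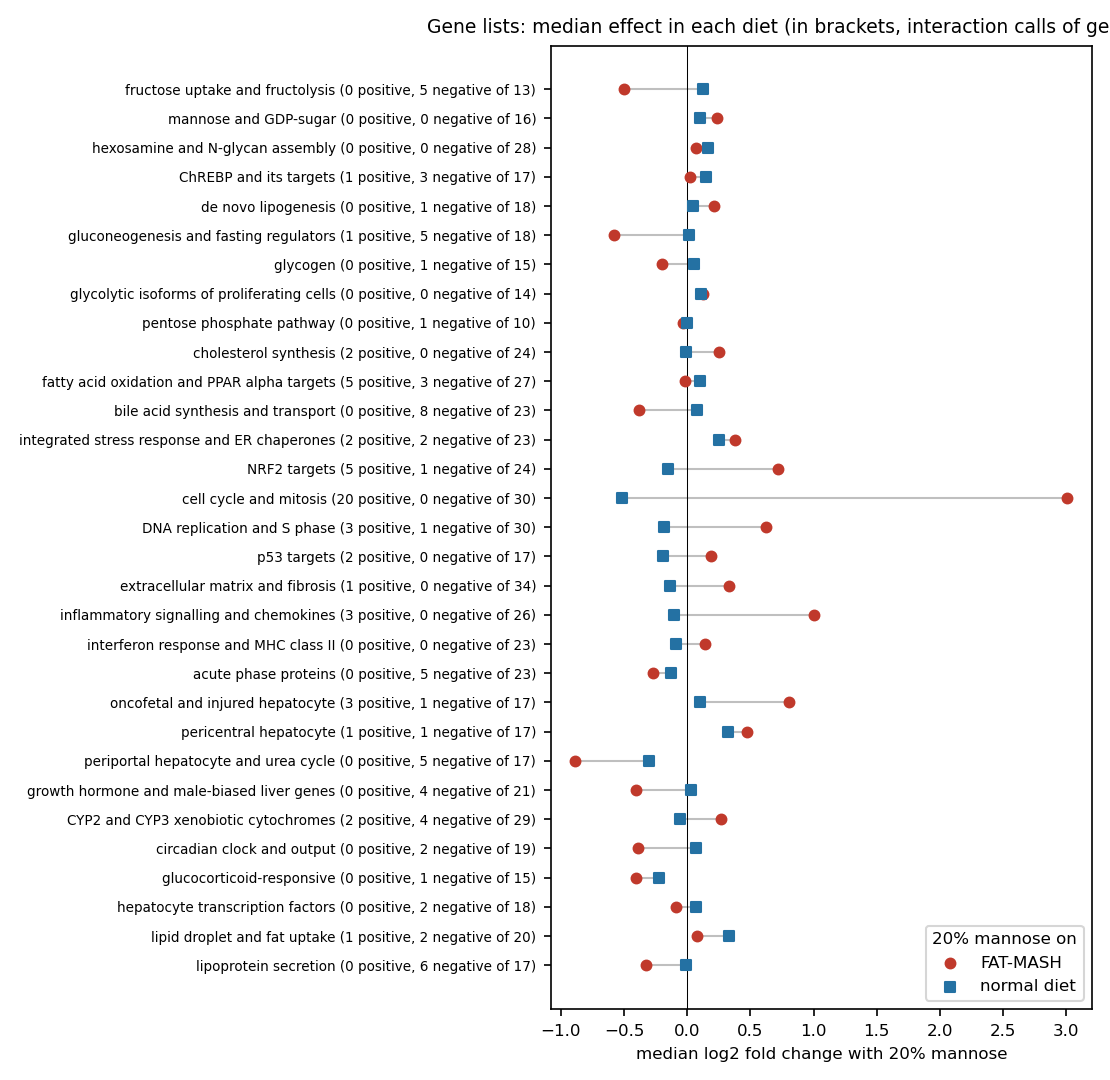
Median log2 fold change with 20% mannose over the tested members of each of 31 gene lists, on FAT-MASH (red circles) and on normal diet (blue squares), with the number of members called with a positive or negative interaction in brackets. The medians on normal diet lie between -0.52 and 0.33, and the cell cycle list reaches 3.01 on FAT-MASH.

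Among the lists, cell division genes had the widest gap between the diets. All 30 members of the cell cycle and mitosis list rose with mannose on FAT-MASH, with a median log2 fold change of 3.01, and their median estimate on normal diet was -0.52. The interaction was called positive for 20 of the 30, where 2.26% of all genes were. The list's median interaction was 3.32, against -0.00091 over all genes. Ccnd1, cyclin D1, which drives entry into the cycle and is not on the list, stood at 10.5, 20 and 17.8 CPM on FAT-MASH and 116, 130 and 151 with mannose. Normal-diet livers had 16.8 and 10.2 CPM without and 13.3, 11.9 and 13.8 with mannose, and 9.22, 8.08 and 7.06 in the first batch. Its interaction was 3.09 ± 0.40 (SE, adjusted p = 0.000101). All 3 FAT-MASH livers with mannose lay above every other liver, and the normal-diet groups overlapped. Ccnd1 was picked for the size of its interaction, so the separation on FAT-MASH was favoured. Top2a, the topoisomerase that separates replicated chromatids, had 0.933, 1.93 and 2.8 CPM on FAT-MASH and 10.8, 12.7 and 10.7 with mannose, against 2.94 and 1.84 without and 0.747, 1.13 and 1.91 with mannose on normal diet. Its interaction was 3.53 ± 0.59 (SE, adjusted p = 0.000868). Mki67, the proliferation marker Ki-67, went from 1.54, 3.52 and 3.02 to 24.5, 21.1 and 21.4 CPM on FAT-MASH and had 1.17 and 1.48 CPM without and 1.13, 0.206 and 2.47 with mannose on normal diet. Its interaction was 3.13 ± 0.85 (SE, adjusted p = 0.0297).

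Mitotic genes were near the lower limit of the counts on normal diet. Plk1, polo-like kinase 1, had 0.305, 0.483 and 0.265 CPM on FAT-MASH and 6.12, 4.32 and 4.79 with mannose, and 0.559 and 0.36 CPM on normal diet and 0, 0.0515 and 0 with mannose. Its fitted interaction of 8.38 (adjusted p = 0.000317) depends on those near-zero values. Cenpf, a kinetochore protein, had 0.0718, 0.738 and 0.423 CPM on FAT-MASH and 8.36, 8.13 and 5.18 with mannose, with an interaction of 5.53 ± 1.00 (SE, adjusted p = 0.00188). On normal diet its values were 0.326 and 0.72 CPM without and 0.258, 0.309 and 0.0515 with mannose. Ube2c, a ubiquitin-conjugating enzyme of mitotic exit, had 0.628, 0.454 and 0.794 CPM without and 11.2, 9.46 and 7.16 with mannose on FAT-MASH and 0.792 and 0.045 without and 0.258, 0.258 and 0.103 with mannose on normal diet (interaction 4.88 ± 0.87, adjusted p = 0.00165). Hmmr, a spindle protein, rose on FAT-MASH from 0.179, 0.284 and 0.317 to 8.17, 7.32 and 5.73 CPM, but its interaction of 4.36 did not pass (adjusted p = 0.0769, 95% interval 1.39 to 7.33). Leaving out each library in turn, the interaction ranged for Hmmr from 3.07 without normal-diet replicate 4 to 10.1 without replicate 3 of normal diet with mannose, called without replicate 3 of normal diet with mannose (adjusted p = 0.00471). It was called against the first-batch normal-diet livers, at 6.96 (adjusted p = 0.000668). These fitted values rest on few counts on normal diet, where Hmmr had 0.186 and 0.045 CPM without and 0, 0 and 0.464 with mannose. The summed cholangiocyte markers, of another cell type, were 117 to 135 CPM without and 226 to 549 with mannose on FAT-MASH, and 59.1 to 95.5 CPM over the 5 normal-diet livers of the second batch. Of the 12 markers 5 rose on FAT-MASH. Their part in the cell cycle difference was not tested.

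Ccnd1, Top2a, Plk1 and Cenpf kept the interaction call in each of the 11 fits with 1 library left out. Mki67 and Ube2c lost the call in 1 to 6 of these fits: without normal-diet replicate 5 Mki67 had an adjusted p of 0.0905; without normal-diet replicate 4 Ube2c had an adjusted p of 0.657. Leaving out 1 library moved an interaction by over 1.5 times to 1.75 for Ube2c without normal-diet replicate 4. The list held 14 calls without normal-diet replicate 4 and 1 under limma voom with quality weights. It held 24 calls with the first-batch normal-diet livers as the control.

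**Figure D3:**
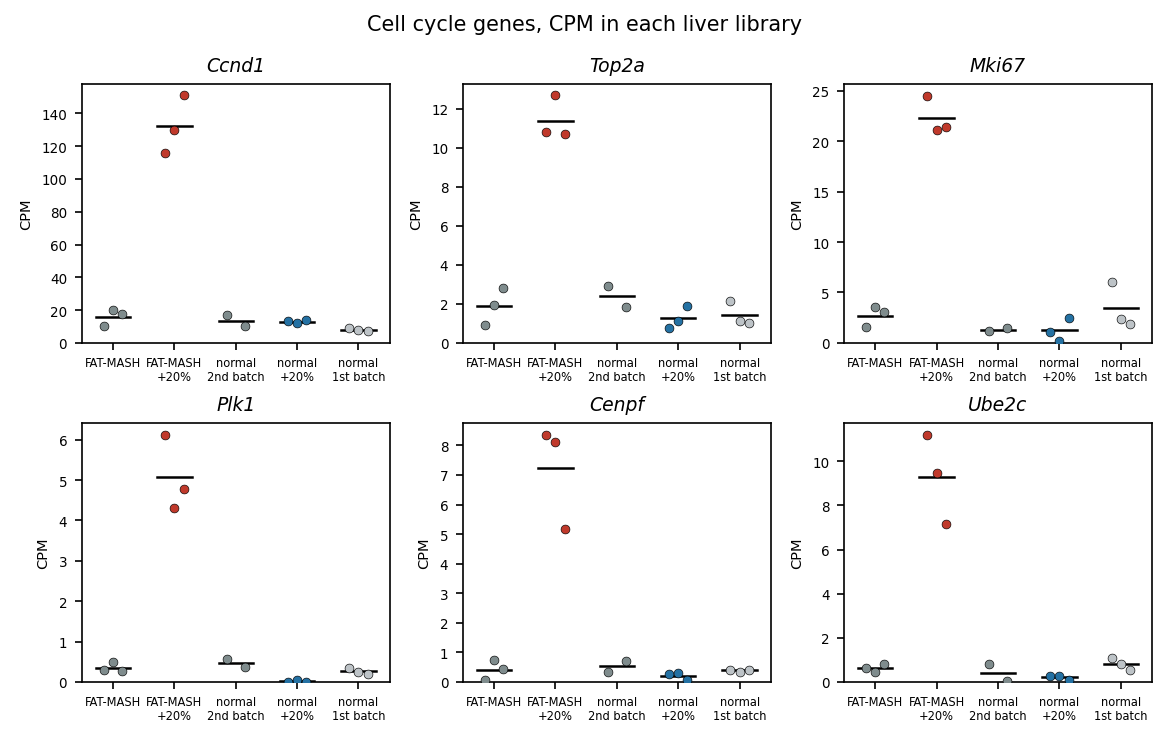
CPM of 6 cell cycle genes in each liver library, by group, with horizontal lines at the group means. The 3 FAT-MASH livers with 20% mannose lie above all other libraries for each of the 6 genes.

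The promoters of these genes are shown because the members moved together on FAT-MASH. Late cell cycle promoters are known for pairs of CCAAT boxes and for a motif of TTTGAA or TTCGAA. In the RefSeq windows from 250 bases before to 50 after the start (GRCm38.p6), which exist here for 24 of the 30 members, 15 of the 17 called members with a window held TTTGAA or TTCGAA on either strand (88.2%). So did 4 of the 7 members not called (57.1%) and 19.4% of all 27025 promoter windows of that length. CCAAT on either strand was in 82.4%, 71.4% and 37.9% of these 3 sets. Both motifs were in 82.4%, 42.9% and 7.7%. TTCGAA reads the same on both strands, so a match counts once. A match is a stretch of letters, not a measured binding site. The list was made of known cell cycle genes, so a motif share above that of all promoters was favoured and says nothing of mannose. The difference between called and uncalled members was not tested. In the 250 bases before the start alone, Plk1 and Cenpf held no TTTGAA or TTCGAA. The 250 bases before the start are printed for Top2a (chr11:99024190-99024439, minus strand), Mki67 (chr7:135716380-135716629, minus strand) and Ube2c (chr2:164769679-164769928, plus strand), in GRCm38.p6, with both motifs in capitals on whichever strand they match.
Top2a: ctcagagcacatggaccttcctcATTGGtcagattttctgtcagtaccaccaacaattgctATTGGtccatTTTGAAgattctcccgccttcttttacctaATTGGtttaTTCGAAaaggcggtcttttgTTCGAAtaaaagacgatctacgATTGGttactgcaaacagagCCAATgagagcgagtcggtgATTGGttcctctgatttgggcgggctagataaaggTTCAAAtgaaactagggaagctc
Mki67: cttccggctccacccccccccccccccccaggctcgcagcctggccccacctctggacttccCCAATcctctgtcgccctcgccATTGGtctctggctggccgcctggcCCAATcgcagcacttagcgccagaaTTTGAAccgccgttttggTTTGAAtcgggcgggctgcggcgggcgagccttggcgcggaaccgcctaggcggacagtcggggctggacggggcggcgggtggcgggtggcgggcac
Ube2c: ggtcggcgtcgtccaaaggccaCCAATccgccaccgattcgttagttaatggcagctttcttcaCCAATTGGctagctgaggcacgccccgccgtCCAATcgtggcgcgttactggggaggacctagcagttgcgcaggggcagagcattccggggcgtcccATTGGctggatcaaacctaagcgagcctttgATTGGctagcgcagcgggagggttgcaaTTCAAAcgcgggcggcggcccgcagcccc

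Fructose handling moved the other way. Of 13 tested genes of fructose uptake and breakdown, 8 fell with mannose on FAT-MASH and 5 were called in the interaction, each negative, where 3.41% of all genes were. The list's median was -0.50 on FAT-MASH and 0.13 on normal diet. Khk, which commits fructose to breakdown (GRCm39 chr5:31078775-31088592), had 761, 790 and 786 CPM on FAT-MASH and 370, 373 and 318 with mannose. Livers on normal diet had 282 and 370 CPM without and 368, 403 and 434 with mannose, and 427, 472 and 540 in the first batch. Its interaction was -1.44 ± 0.25 (SE, adjusted p = 0.00115), and the FAT-MASH groups did not overlap while the normal-diet groups did. Slc2a5, the fructose transporter GLUT5, fell from 4.92, 6.24 and 7.62 to 1.35, 0.956 and 2.34 CPM on FAT-MASH and had 4.75 and 5.08 CPM without and 4.38, 7.62 and 8.71 with mannose on normal diet. Its interaction was -2.49 ± 0.52 (SE, adjusted p = 0.00538).

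Gckr, a fructose phosphate-sensitive regulator of hepatic sugar phosphorylation, fell from 324, 283 and 256 to 156, 130 and 160 CPM on FAT-MASH, and had 165 and 177 CPM without and 145, 144 and 167 with mannose on normal diet (interaction -0.78 ± 0.18, adjusted p = 0.0117). Its first-batch normal-diet values, 242, 268 and 309 CPM, were near those of FAT-MASH. Slc2a9, a urate and hexose transporter, had an interaction of -0.68 ± 0.17 (SE, adjusted p = 0.0178). Sord, sorbitol dehydrogenase, had one of -0.58 ± 0.15 (SE, adjusted p = 0.0234). Pklr, liver pyruvate kinase and a ChREBP target, went from 218, 343 and 236 to 168, 166 and 165 CPM on FAT-MASH, with 80.8 and 129 CPM without and 176, 150 and 157 with mannose on normal diet (interaction -1.29 ± 0.31, adjusted p = 0.0152). Mlxipl itself went from 737, 562 and 368 to 298, 211 and 261 CPM on FAT-MASH and from 277 and 328 to 277, 249 and 303 on normal diet (interaction -0.98 ± 0.28, adjusted p = 0.0369). Klf10, a ChREBP-responsive repressor, was the 1 member of the 17-gene ChREBP list called positive, at 1.42 ± 0.40 (SE, adjusted p = 0.0355). The list's called members otherwise were Khk, Pklr and Mlxipl. With each library left out in turn, Khk and Slc2a5 stayed past the threshold in all 11 fits. Calls were lost in 1 to 8 of the fits for the rest: without normal-diet replicate 4 Gckr had an adjusted p of 0.0715, Slc2a9 of 0.121, Sord of 0.189, Pklr of 0.129, Mlxipl of 0.173 and Klf10 of 0.0894. Against the first-batch normal-diet livers, Khk and Slc2a5 kept the call (with the interaction moved to -0.88 for Khk), and it was lost at interactions of -0.11 for Gckr, -0.28 for Slc2a9, -0.44 for Sord, -0.83 for Pklr, -0.076 for Mlxipl and 1.31 for Klf10.

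Other members of these pathways had intervals that span a wide range of effects. Slc2a2, the liver hexose transporter GLUT2, had an interaction of -0.98 (95% interval -1.61 to -0.35, adjusted p = 0.0583). Its normal-diet controls were far apart, at 110 and 276 CPM. With 1 library left out, the interaction ranged for Slc2a2 from -1.78 without normal-diet replicate 5 to -0.47 without normal-diet replicate 4, called without replicate 3 of FAT-MASH with mannose (adjusted p = 0.0465) and normal-diet replicate 5 (adjusted p = 0.000116). Tkfc, which phosphorylates glyceraldehyde from fructose, fell on FAT-MASH by 0.45 on the log2 scale, and its interaction of -0.37 had a 95% interval of -0.83 to 0.093 (adjusted p = 0.376). For Txnip, a ChREBP target, the interaction was -0.36 (95% interval -0.88 to 0.17). Over the 11 fits without 1 library, the interaction ranged for Tkfc from -0.62 without normal-diet replicate 5 to -0.15 without normal-diet replicate 4.

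**Figure D4:**
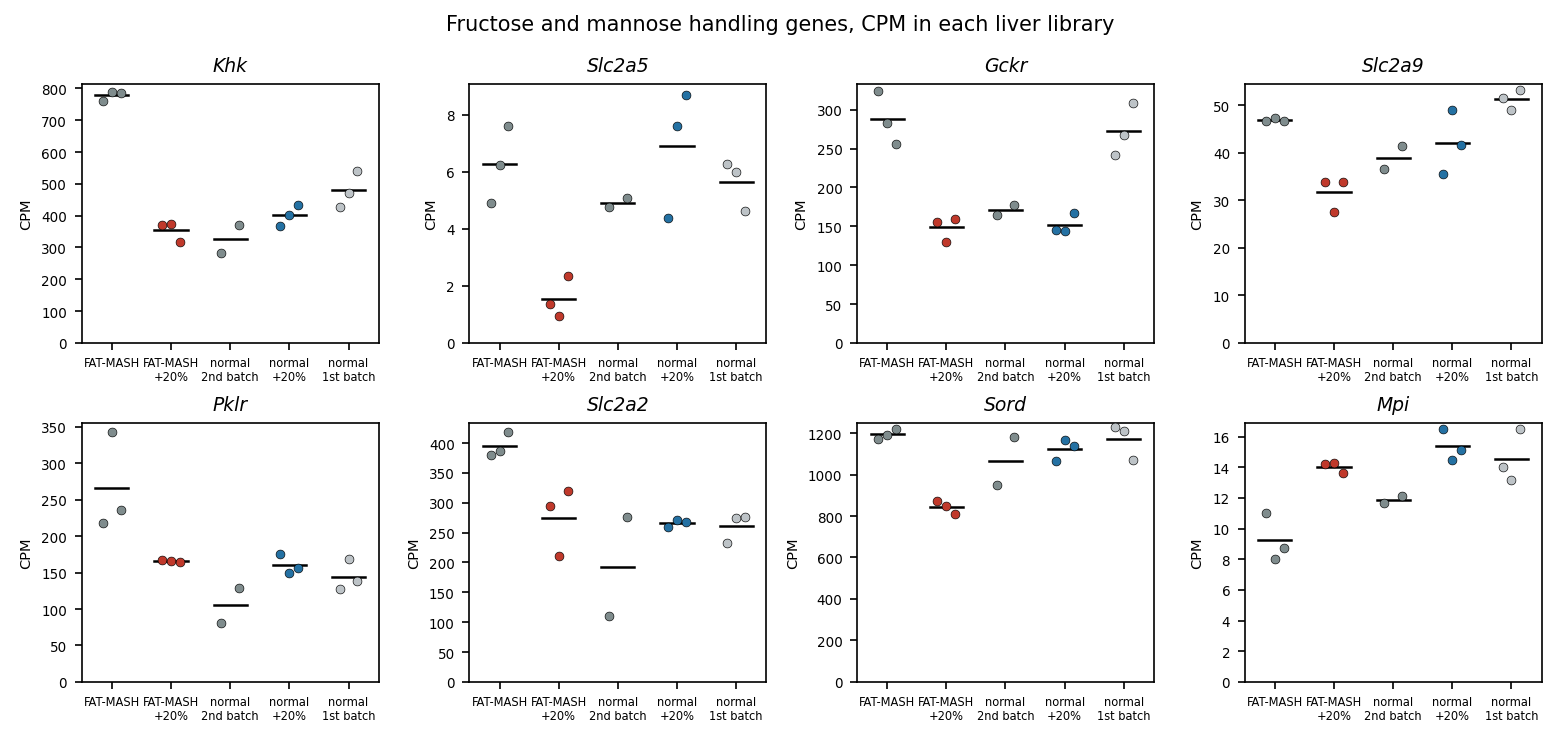
CPM of 8 genes of fructose and mannose handling in each liver library, by group, with horizontal lines at the group means. For Khk, Slc2a5, Gckr, Slc2a9, Pklr and Sord the FAT-MASH livers with mannose lie below those without, and the second-batch normal-diet groups overlap for each of these but Pklr.

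Genes that act on mannose itself gave no interaction call with all 11 libraries. Among 16 genes of mannose and GDP-sugar metabolism, edgeR called 0, with 3 at an unadjusted p under 0.05 and 0 called by DESeq2. Mpi rose with mannose on FAT-MASH, from 11, 8 and 8.76 to 14.2, 14.3 and 13.6 CPM, and had 11.7 and 12.1 CPM without and 16.5, 14.5 and 15.1 with mannose on normal diet. Its interaction was 0.24 with a 95% interval of -0.21 to 0.68. Pmm1 (0.73, 95% interval -0.47 to 1.93) and Pmm2 (-0.40, -0.74 to -0.062) did not pass either. With 1 library left out, the interaction ranged for Mpi from 0.15 without FAT-MASH replicate 2 to 0.39 without FAT-MASH replicate 1, and for Pmm1 from 0.18 without normal-diet replicate 5 to 1.13 without normal-diet replicate 4, and for Pmm2 from -0.65 without normal-diet replicate 5 to -0.18 without normal-diet replicate 4, called without normal-diet replicate 5 (adjusted p = 0.0279). Among 28 genes of the hexosamine pathway and N-glycan assembly edgeR also called 0, with 4 at an unadjusted p under 0.05 and 3 called by DESeq2. The 14 glycolytic isoforms of proliferating cells had 0 calls by edgeR and by DESeq2, with 4 at an unadjusted p under 0.05.

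Gluconeogenic and periportal genes fell on FAT-MASH, and their interaction calls were mostly negative. In the gluconeogenesis and fasting list 11 of 18 members fell on FAT-MASH. In the interaction 6 were called, 5 negative and Nr4a1 positive, where 5.67% of all genes were called. Sds, serine dehydratase, fell from 149, 87.7 and 153 to 22.4, 22.9 and 18.7 CPM on FAT-MASH. On normal diet it had 109 and 78.8 CPM without and 50.7, 64.2 and 65.9 with mannose, so that the estimate was lower in both diets (-2.61 and -0.64) and the interaction was -1.97 ± 0.43 (SE, adjusted p = 0.0076). Fbp1, fructose-1,6-bisphosphatase, fell from 929, 1121 and 1152 to 645, 601 and 641 CPM on FAT-MASH and had 1038 and 848 CPM without and 842, 968 and 1004 with mannose on normal diet (interaction -0.76 ± 0.19, adjusted p = 0.0181). The interaction was -0.99 for Gpt, alanine transaminase, -1.33 for Slc37a4, the glucose-6-phosphate transporter, and -0.73 for Pcx, pyruvate carboxylase. Nr4a1, an immediate-early nuclear receptor, had 1.97, 1.93 and 2.3 CPM without and 4.54, 5.11 and 4.79 with mannose on FAT-MASH and 9.3 and 10.4 without and 1.29, 3.12 and 7.42 with mannose on normal diet (interaction 2.54 ± 0.68, adjusted p = 0.027). In all 11 fits without 1 library, the interaction call held for Sds. Gpt, Slc37a4, Fbp1, Pcx and Nr4a1 lost the call in 1 to 8 of these fits: without normal-diet replicate 4 Gpt had an adjusted p of 0.106, Slc37a4 of 0.133, Pcx of 0.208 and Nr4a1 of 0.0626; without normal-diet replicate 5 Fbp1 had an adjusted p of 0.101. With the first-batch normal-diet livers as the control, Sds, Fbp1, Pcx and Nr4a1 kept the call, and it was lost at interactions of -0.45 for Gpt and -0.76 for Slc37a4.

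Pck1 and G6pc, which catalyse the first and last dedicated steps of glucose production, were not called in the interaction. Pck1 fell on FAT-MASH from 1888, 943 and 2267 to 708, 729 and 594 CPM and had 2055 and 1163 CPM without and 710, 628 and 1029 with mannose on normal diet. Its interaction of -0.30 had a 95% interval of -1.10 to 0.50. That of G6pc was -0.73 (-1.54 to 0.068). Over the 11 fits without 1 library, the interaction ranged for Pck1 from -0.77 without normal-diet replicate 4 to 0.061 without normal-diet replicate 5, and for G6pc from -1.26 without normal-diet replicate 4 to -0.34 without normal-diet replicate 5. Pygl, liver glycogen phosphorylase, fell from 653, 741 and 726 to 459, 407 and 400 CPM on FAT-MASH and had 425 and 531 CPM without and 556, 549 and 536 with mannose on normal diet. It was the 1 call among 15 genes of the glycogen list (interaction -0.94 ± 0.17, adjusted p = 0.00192), and it kept the call with any library left out and with the first-batch control. Of all genes 5.67% were called in the interaction, near the share of the glycogen list. Shpk, sedoheptulokinase, was the 1 call among 10 genes of the pentose phosphate list, at -0.75 ± 0.22 (SE, adjusted p = 0.0417), with an adjusted p of 0.255 without normal-diet replicate 4.

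Of 17 periportal and urea cycle genes, 13 fell on FAT-MASH, and 5 had a negative interaction call, where 3.41% of all genes did. These were Sds and 4 enzymes of nitrogen and amino acid metabolism. The list's median was -0.89 on FAT-MASH and -0.30 on normal diet. Otc, the mitochondrial urea cycle enzyme ornithine transcarbamylase, fell from 652, 703 and 760 to 342, 298 and 323 CPM on FAT-MASH and had 629 and 650 CPM without and 567, 603 and 608 with mannose on normal diet. Its interaction was -1.03 ± 0.18 (SE, adjusted p = 0.00147). Hal, histidase, fell from 484, 494 and 510 to 201, 142 and 137 CPM on FAT-MASH, with 616 and 592 CPM without and 553, 608 and 601 with mannose on normal diet (interaction -1.59 ± 0.32, adjusted p = 0.00445). Asl, argininosuccinate lyase, and Uroc1, urocanase, had interactions of -0.73 and -0.59. Otc and Hal kept the interaction call in each of the 11 fits with 1 library left out. Uroc1 and Asl lost the call in 5 to 7 of these fits: without normal-diet replicate 4 Uroc1 had an adjusted p of 0.0915 and Asl of 0.0915. When the first-batch normal-diet livers served as the control, Otc and Hal kept the call, and it was lost at interactions of -0.32 for Uroc1 and -0.49 for Asl.

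The bile acid list had 8 interaction calls among 23 tested genes, all negative, where 3.41% of all genes were called negative. On FAT-MASH 10 members fell. Slc10a2, a bile acid transporter that is not on the list, went the other way, with a positive interaction call of 2.55 (given below). The list's median was -0.38 on FAT-MASH and 0.079 on normal diet. Slc10a1, the sodium-dependent bile acid importer NTCP, fell from 500, 559 and 522 to 243, 192 and 209 CPM on FAT-MASH. On normal diet it had 378 and 514 CPM without and 583, 598 and 537 with mannose, and its interaction was -1.66 ± 0.24 (SE, adjusted p = 0.000342). Slc27a5, which activates bile acids for conjugation, fell from 1043, 1065 and 1027 to 622, 576 and 522 CPM on FAT-MASH and had 903 and 941 CPM without and 878, 1046 and 1006 with mannose on normal diet (interaction -0.95 ± 0.18, adjusted p = 0.00265). Akr1d1, the steroid 5-beta-reductase, had an interaction of -1.07 ± 0.25 (SE, adjusted p = 0.0122). Nr1h4, the bile acid receptor FXR, had one of -0.73 ± 0.18 (SE, adjusted p = 0.0154). Nr0b2, its target SHP, fell from 88.1, 81.5 and 63 to 19.2, 20.4 and 29 CPM on FAT-MASH and had 50.5 and 54.9 CPM without and 19.1, 70.9 and 45.3 with mannose on normal diet (interaction -1.53 ± 0.44, adjusted p = 0.0412). Cyp7a1, the rate-limiting enzyme of bile acid synthesis, overlapped between groups in both diets and its interaction of -0.84 had a 95% interval of -2.06 to 0.37. Over the 11 fits without 1 library, the interaction ranged for Cyp7a1 from -2.07 without normal-diet replicate 4 to -0.19 without normal-diet replicate 5. With each library left out in turn, Slc10a1 and Slc27a5 stayed past the threshold in all 11 fits. Calls were lost in 1 to 8 of the fits for the rest: without normal-diet replicate 4 Akr1d1 had an adjusted p of 0.112, Nr1h4 of 0.0819 and Nr0b2 of 0.144. Against the first-batch normal-diet livers, Slc10a1, Slc27a5 and Akr1d1 kept the call, and it was lost at interactions of -0.42 for Nr1h4 and -1.10 for Nr0b2.

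Lipoprotein genes had 6 negative calls among 17 tested, where 3.41% of all genes were called negative. Lipc, hepatic lipase, fell from 242, 242 and 224 to 125, 117 and 125 CPM on FAT-MASH and had 122 and 171 CPM without and 154, 159 and 185 with mannose on normal diet (interaction -1.14 ± 0.17, adjusted p = 0.000473). Among apolipoproteins, Apoe fell from 31515, 32209 and 28837 to 19109, 18045 and 18410 CPM on FAT-MASH, with 22815 and 22964 CPM without and 21423, 28309 and 26174 with mannose on normal diet (interaction -0.88 ± 0.19, adjusted p = 0.00748). Apoc3, an inhibitor of triglyceride clearance, had an interaction of -0.96 ± 0.19 (SE, adjusted p = 0.00421), and Apoa2, an HDL protein, of -1.03 ± 0.19 (SE, adjusted p = 0.00231). In all 11 fits without 1 library, the interaction call held for Lipc, Apoa2, Apoc3 and Apoe. With the first-batch normal-diet livers as the control, Lipc, Apoc3 and Apoe kept the call, and it was lost at an interaction of -0.57 for Apoa2.

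Secreted acute phase proteins had 5 interaction calls among 23 tested genes, each negative. Of all genes 3.41% were called negative, and of list members 18.6% were called in either direction. On FAT-MASH 10 members fell. Serpina3n, a protease inhibitor induced in inflammation, fell from 429, 426 and 569 to 213, 211 and 245 CPM on FAT-MASH and had 165 and 187 CPM without and 184, 194 and 198 with mannose on normal diet. Its interaction was -1.21 ± 0.18 (SE, adjusted p = 0.000473). Saa4, the constitutive serum amyloid A, had an interaction of -1.28 ± 0.25 (SE, adjusted p = 0.00314). Those of Orm1, Serpina3m and Crp were -0.97, -0.84 and -0.54. Serpina3n and Saa4 kept the interaction call in each of the 11 fits with 1 library left out. Orm1, Crp and Serpina3m lost the call in 1 to 9 of these fits: without normal-diet replicate 4 Orm1 had an adjusted p of 0.149, Crp of 0.124 and Serpina3m of 0.115. When the first-batch normal-diet livers served as the control, Serpina3n and Saa4 kept the call, and it was lost at interactions of -0.56 for Orm1, -0.39 for Crp and -0.64 for Serpina3m.

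Growth hormone-dependent and male-biased genes had 4 interaction calls among 21 tested, each negative. Of all genes 3.41% were called negative, and of list members 18.6% were called in either direction, near the share here. Hsd3b5, a male-specific steroid dehydrogenase, fell from 3.34, 11.4 and 3.73 to 0.639, 0.249 and 0.685 CPM on FAT-MASH. On normal diet, where it was far more abundant, it had 303 and 244 CPM without, 396, 225 and 272 with mannose and 278, 342 and 301 in the first batch, and the interaction was -3.63 ± 0.76 (SE, adjusted p = 0.0057). Cyp2d9, a male-biased steroid hydroxylase, fell from 947, 1157 and 972 to 388, 346 and 235 CPM on FAT-MASH and had 1180 and 1502 CPM without and 1614, 1647 and 1637 with mannose on normal diet (interaction -1.95 ± 0.34, adjusted p = 0.00118). Ghr, the growth hormone receptor, and Nudt7, a peroxisomal coenzyme A hydrolase, had interactions of -0.67 and -1.04. With each library left out in turn, Cyp2d9 and Hsd3b5 stayed past the threshold in all 11 fits. Calls were lost in 1 to 7 of the fits for the rest: without normal-diet replicate 4 Ghr had an adjusted p of 0.0685; without FAT-MASH replicate 2 Nudt7 had an adjusted p of 0.125. Against the first-batch normal-diet livers, Cyp2d9, Hsd3b5, Ghr and Nudt7 kept the call.

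Drug-metabolizing cytochromes split, with 6 interaction calls among 29 tested genes, where 5.67% of all genes and 18.6% of list members were called. Negative calls were those of Cyp2d22, Cyp2e1, Cyp2c54 and Cyp2c50, and positive ones those of Cyp2c55 and Por, the reductase that serves all microsomal P450 enzymes. Cyp2d22 fell from 341, 324 and 303 to 168, 138 and 151 CPM on FAT-MASH, with 214 and 261 CPM without and 220, 240 and 262 with mannose on normal diet (interaction -1.10 ± 0.18, adjusted p = 0.000678). Cyp2e1, the enzyme that activates CCl4, fell from 4834, 4039 and 4310 to 2726, 1958 and 2478 CPM on FAT-MASH. On normal diet, where the controls were at 3415 and 6003 CPM, it had 6319, 7426 and 6103 with mannose (interaction -1.37 ± 0.28, adjusted p = 0.00524). The interaction was -2.36 for Cyp2c54, -1.5 for Cyp2c50, 1.82 for Cyp2c55 and 1.04 for Por. Axin2, a target of Wnt signalling, was the other call of the 17-gene pericentral list beside Cyp2e1, at 1.07 ± 0.31 (SE, adjusted p = 0.0438). In all 11 fits without 1 library, the interaction call held for Cyp2d22. Cyp2e1, Cyp2c54, Cyp2c50, Cyp2c55, Por and Axin2 lost the call in 1 to 9 of these fits: without normal-diet replicate 4 Cyp2e1 had an adjusted p of 0.0544, Cyp2c54 of 0.0624, Cyp2c50 of 0.162, Cyp2c55 of 0.0677, Por of 0.196 and Axin2 of 0.126. Leaving out 1 library moved an interaction by over 1.5 times to -0.99 for Cyp2c50 without normal-diet replicate 4 and -2.28 for Cyp2c50 without normal-diet replicate 5. With the first-batch normal-diet livers as the control, Cyp2d22, Cyp2e1 and Cyp2c54 kept the call (with the interaction moved to -0.59 for Cyp2d22), and it was lost at interactions of -1.05 for Cyp2c50, 1.24 for Cyp2c55, 0.66 for Por and 0.82 for Axin2. Reads shared by near-identical Cyp2c genes are not resolved by these counts.

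Targets of PPAR alpha, the fatty acid-sensing receptor, were called in both directions, 8 of 27 in all, where 5.67% of all genes were. Cyp4a14, a fatty acid omega-hydroxylase, rose from 673, 290 and 267 to 1795, 1628 and 1344 CPM on FAT-MASH. On normal diet it had 107 and 133 CPM without, 26.8, 52.6 and 37.3 with mannose and 64.1, 45.2 and 37.8 in the first batch, and its interaction was 3.58 ± 0.54 (SE, adjusted p = 0.000433). The diets' groups did not overlap in either comparison, although the normal-diet effect of -1.63 did not pass (adjusted p = 0.102). Cyp4a14 was picked for the size of its interaction, so such separation was favoured. Ehhadh, the peroxisomal bifunctional enzyme, rose from 758, 755 and 570 to 1720, 1877 and 1328 CPM on FAT-MASH and had 346 and 380 CPM without and 257, 314 and 256 with mannose on normal diet (interaction 1.64 ± 0.26, adjusted p = 0.000691). Acot1 and Acot2, the cytosolic and mitochondrial members of a family of near-identical acyl-CoA thioesterases, had interactions of 1.5 and 1.24, and Crat, carnitine acetyltransferase, of 0.82. Acaa2, a thiolase of beta-oxidation, and Bdh1, the ketone body dehydrogenase, had interactions of -0.55 and -0.64. Cyp4a14, Ehhadh, Acot1 and Acot2 kept the interaction call in each of the 11 fits with 1 library left out. Crat, Acaa2 and Bdh1 lost the call in 1 to 7 of these fits: without normal-diet replicate 4 Crat had an adjusted p of 0.142, Acaa2 of 0.0963 and Bdh1 of 0.235. When the first-batch normal-diet livers served as the control, Cyp4a14, Ehhadh, Acot1, Acot2, Crat, Acaa2 and Bdh1 kept the call (with the interaction moved to 2.29 for Cyp4a14 and 2.06 for Acot2).

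Oxidative stress genes under NRF2 had mostly positive interactions. Of 24 members 15 rose on FAT-MASH, and the list's median interaction was 0.92. In the interaction 6 were called, 5 positive and Ces2g negative, where 5.67% of all genes were called. Gstm3, a glutathione transferase, rose from 159, 200 and 293 to 1052, 1260 and 451 CPM on FAT-MASH and had 122 and 225 CPM without and 82.2, 179 and 76 with mannose on normal diet (interaction 2.71 ± 0.53, adjusted p = 0.00364). Replicate 3 was the lowest of the FAT-MASH livers with mannose. The same order held for Srxn1, sulfiredoxin, at 200, 441 and 111 CPM with mannose against 67.6, 68.4 and 90.5 without on FAT-MASH (interaction 1.82 ± 0.50, adjusted p = 0.0307). For Gsta1, another transferase, the values were 53.7, 96.1 and 19.2 CPM with and 9.85, 9.08 and 12.4 without mannose on FAT-MASH (interaction 3.05 ± 0.91, adjusted p = 0.0478). The interaction was 1.16 for Gstm2, 1.32 for Hmox1, heme oxygenase 1, and -0.62 for Ces2g, a carboxylesterase. With each library left out in turn, Gstm3 stayed past the threshold in all 11 fits. Calls were lost in 6 to 9 of the fits for the rest: without normal-diet replicate 4 Hmox1 had an adjusted p of 0.168 and Ces2g of 0.218; without replicate 2 of FAT-MASH with mannose Srxn1 had an adjusted p of 0.131 and Gsta1 of 0.149; without normal-diet replicate 5 Gstm2 had an adjusted p of 0.368. Leaving out 1 library moved an interaction by over 1.5 times to 1.13 for Srxn1 without replicate 2 of FAT-MASH with mannose and 0.59 for Gstm2 without normal-diet replicate 5. Against the first-batch normal-diet livers, Gstm3, Srxn1 and Gstm2 kept the call, and it was lost at interactions of 0.97 for Hmox1, 2.53 for Gsta1 and -0.34 for Ces2g.

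Stress and injury lists held interaction calls of both signs. In the integrated stress response list 4 of 23 were called, 2 in each direction, where 5.67% of all genes and 18.6% of list members were. Atf3, a stress-induced transcription factor, rose from 4.49, 5 and 6.75 to 24.8, 28.5 and 17.4 CPM on FAT-MASH and had 2.47 and 2.29 CPM without and 1.44, 0.876 and 1.03 with mannose on normal diet (interaction 3.22 ± 0.62, adjusted p = 0.0033). Psat1, an enzyme of serine synthesis, had an interaction of 3.06, and Herpud1, of endoplasmic reticulum protein degradation, and Shmt2, of mitochondrial folate metabolism, had -1.68 and -0.59. Of 17 oncofetal and injured-hepatocyte genes 10 rose on FAT-MASH and 4 were called in the interaction. Anxa5, annexin A5, rose from 135, 150 and 172 to 284, 302 and 333 CPM on FAT-MASH and had 104 and 95.6 CPM without and 85.9, 100 and 84.2 with mannose on normal diet (interaction 1.15 ± 0.21, adjusted p = 0.0023). Krt8, a hepatocyte keratin, and Peg10, an imprinted retrotransposon-derived gene, had interactions of 0.89 and 2.88. H19, an imprinted fetal liver transcript, fell from 4.07, 26.8 and 37.7 to 0.388, 0.333 and 2.24 CPM on FAT-MASH, and on normal diet it had 0.653 and 0 CPM without and 0.283, 0.541 and 2.91 with mannose (interaction -6.43 ± 1.68, adjusted p = 0.0236). In all 11 fits without 1 library, the interaction call held for Atf3 and Anxa5. Psat1, Herpud1, Shmt2, Peg10, Krt8 and H19 lost the call in 1 to 5 of these fits: without normal-diet replicate 4 Psat1 had an adjusted p of 0.647, Shmt2 of 0.224, Peg10 of 0.496 and Krt8 of 0.0596; without normal-diet replicate 5 Herpud1 had an adjusted p of 0.0629; without replicate 3 of normal diet with mannose H19 had an adjusted p of 0.117. Leaving out 1 library moved an interaction by over 1.5 times to 0.86 for Psat1 without normal-diet replicate 4, 0.77 for Peg10 without normal-diet replicate 4 and -13.2 for H19 without normal-diet replicate 4. With the first-batch normal-diet livers as the control, Atf3, Psat1, Herpud1, Anxa5, Krt8 and H19 kept the call, and it was lost at interactions of -0.20 for Shmt2 and 0.85 for Peg10.

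Inflammatory signalling had 7 members of 26 that rose on FAT-MASH. Of all genes 2.26% were called positive in the interaction, and of list members 18.6% were called in either direction. Here 3 were called, each positive. These were Nfkb2 (1.35) and Relb (1.60), subunits of NF-kB, and Cxcl10 (2.12), an interferon-inducible chemokine. Each of the 3 lost its call in 6 to 8 of the 11 fits without 1 library, Nfkb2 with an adjusted p of 0.247 and Relb of 0.462 (interaction 0.75) without normal-diet replicate 4. Summed neutrophil markers moved alongside, at 17.2 to 19 CPM on FAT-MASH, 20.7 to 33.7 with mannose, 7.06 and 8.59 on normal diet and 3.81 to 5.03 with mannose. S100a9, a calcium-binding protein of these cells, was called lower with mannose on normal diet and positive in the interaction (2.62 ± 0.46, adjusted p = 0.00149), 1 of 7 neutrophil markers tested. Of the 7, 0 were called on FAT-MASH. Their interactions ranged from -5.25 to 3.56, with 6 estimates positive. S100a9 is not among the 109 genes followed through the fits without 1 library and the first-batch control. Ly6g had 0 counts in all normal-diet livers, and Mmp8 in the second-batch controls. Their part in the inflammatory difference was not tested. Col1a1, Timp1, Trem2 and Gpnmb, genes of scarring and of lipid-associated macrophages, had interactions of 0.92, 1.87, 1.89 and 0.74, none called, with 95% intervals of -0.69 to 2.52, -1.61 to 5.36, -0.28 to 4.06 and -4.14 to 5.63. Of 34 extracellular matrix and fibrosis genes 28 had positive interaction estimates and 1 was called, positive. Of 14 recruited-macrophage markers 12 had positive estimates and 1 was called, positive. Leaving out each library in turn, the interaction ranged for Col1a1 from -0.062 without replicate 3 of FAT-MASH with mannose to 1.47 without replicate 1 of normal diet with mannose, and for Timp1 from -3.12 without normal-diet replicate 4 to 5.52 without replicate 3 of normal diet with mannose, and for Trem2 from 1.16 without replicate 3 of FAT-MASH with mannose to 2.52 without replicate 1 of normal diet with mannose, and for Gpnmb from -6.61 without normal-diet replicate 4 to 1.82 without replicate 3 of normal diet with mannose. Replicate 3 of FAT-MASH with mannose stood alone at 102 CPM of Col1a1, against 27 and 25.5 in the other two. Among 23 interferon and MHC class II genes edgeR called 0, with 2 at an unadjusted p under 0.05 and 0 called by DESeq2.

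Lipid synthesis and storage lists held 1 to 3 interaction calls each, where 5.67% of all genes and 18.6% of list members were called. Of 24 cholesterol synthesis genes 6 rose and 2 fell on FAT-MASH, and 2 were called in the interaction, both positive. Hsd17b7, a sterol reductase, rose from 17.2, 18.4 and 18.7 to 40.5, 35.8 and 31.4 CPM on FAT-MASH and had 70 and 91 CPM without and 93.4, 75.3 and 57.2 with mannose on normal diet (interaction 1.08 ± 0.21, adjusted p = 0.00387). Dgat2, which completes triglyceride synthesis, fell from 389, 375 and 384 to 252, 265 and 274 CPM on FAT-MASH and had 463 and 496 CPM without and 550, 573 and 577 with mannose on normal diet. It was the 1 call among 18 lipogenesis genes (interaction -0.78 ± 0.17, adjusted p = 0.00806). Fasn, fatty acid synthase, and Scd1, a fatty acid desaturase, had interactions of -0.047 (95% interval -0.91 to 0.81) and 0.44 (-0.23 to 1.11). With 1 library left out, the interaction ranged for Fasn from -0.30 without FAT-MASH replicate 1 to 0.39 without FAT-MASH replicate 2, and for Scd1 from -0.096 without normal-diet replicate 4 to 0.84 without normal-diet replicate 5. In the lipid droplet list of 20, Hilpda was positive (1.22), and Lipe, hormone-sensitive lipase (-1.26), and Fabp4, a fatty acid-binding protein of fat cells (-1.90), were negative. Fabp4 is also an adipocyte marker, 1 of 7 in a list whose sum was uneven in the normal-diet controls, and its controls had 41.1 and 11.7 CPM. Its normal-diet values with mannose were 50.3, 92.8 and 44.4 CPM, and the part of adipose tissue in them was not tested. Hsd17b7 and Lipe kept the interaction call in each of the 11 fits with 1 library left out. Dgat2, Fabp4 and Hilpda lost the call in 1 to 8 of these fits: without normal-diet replicate 4 Dgat2 had an adjusted p of 0.0547; without normal-diet replicate 5 Fabp4 had an adjusted p of 0.072 and Hilpda of 0.288. Leaving out 1 library moved an interaction by over 1.5 times to -3.08 for Fabp4 without normal-diet replicate 4, -1.25 for Fabp4 without normal-diet replicate 5 and 0.79 for Hilpda without normal-diet replicate 5. When the first-batch normal-diet livers served as the control, Hsd17b7, Dgat2, Lipe and Fabp4 kept the call (with the interaction moved to -0.82 for Lipe and -3.11 for Fabp4), and it was lost at an interaction of 1.12 for Hilpda.

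Regulators and replication genes gave scattered calls. Across all genes 5.67% were called in the interaction, and of list members 18.6%. Of 30 DNA replication genes 9 rose on FAT-MASH and 4 were called in the interaction. Those were Mcm5, Mcm6 and Mcm4, parts of the replicative helicase, at 2.24, 1.47 and 1.37, and Tk1, thymidine kinase, at -0.81. Mcm5 rose from 1.04, 1.25 and 2.38 to 5.41, 6.05 and 5.59 CPM on FAT-MASH and had 4.57 and 3.64 CPM without and 2.78, 2.94 and 3.87 with mannose on normal diet. Tk1 was at 16.1, 16.7 and 16.7 CPM without and 9.89, 8.54 and 8.83 with mannose on FAT-MASH, a fall where most list members had higher estimates. Hlf, a clock output factor, was called at -0.98. Tsc22d3, the glucocorticoid-induced GILZ, was the 1 call among 15 glucocorticoid-responsive genes, near the share of all genes, at -2.13. Beside Nr1h4, Cebpa, a hepatocyte transcription factor, was called among 18 such factors, at -0.66. The p53 list of 17 had 2 positive calls, Zmat3 (0.96) and Plk3 (2.11). Cdkn1a, its cell cycle inhibitor p21, was not called (1.09, 95% interval 0.064 to 2.12). Over the 11 fits without 1 library, the interaction ranged for Cdkn1a from 0.42 without normal-diet replicate 4 to 1.55 without normal-diet replicate 5. With each library left out in turn, Mcm5 stayed past the threshold in all 11 fits. Calls were lost in 1 to 9 of the fits for the rest: without normal-diet replicate 4 Hlf had an adjusted p of 0.179 and Tsc22d3 of 0.0772; without FAT-MASH replicate 2 Cebpa had an adjusted p of 0.132; without normal-diet replicate 5 Zmat3 had an adjusted p of 0.11, Plk3 of 0.124, Mcm6 of 0.0608, Mcm4 of 0.14 and Tk1 of 0.157. Against the first-batch normal-diet livers, Tsc22d3, Cebpa, Mcm5, Mcm6 and Mcm4 kept the call, and it was lost at interactions of -0.77 for Hlf, 0.44 for Zmat3, 1.78 for Plk3 and -0.57 for Tk1.

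Among genes with a mean of at least 5 CPM, the 10 most negative and 10 most positive interaction calls also held genes outside the lists. Acpp, prostatic acid phosphatase, fell from 9.11, 8.8 and 9.36 to 1.83, 1.5 and 2 CPM on FAT-MASH and had 3.68 and 7.27 CPM without, 8.35, 10.1 and 8.87 with mannose and 8.49, 10.7 and 10.6 in the first batch on normal diet. Its interaction was -3.09 ± 0.36 (SE, adjusted p = 4.52e-05). Adrb3, the beta-3 adrenergic receptor, fell from 17.7, 16.7 and 14 to 2.97, 1.6 and 4.22 CPM on FAT-MASH, with 9.65 and 5.26 CPM without and 10.1, 11.1 and 10.7 with mannose on normal diet (interaction -2.96 ± 0.43, adjusted p = 0.0003). Slc22a7, an organic anion transporter, fell from 16.9, 39.8 and 51.2 to 5.66, 3.89 and 4.31 CPM on FAT-MASH. On normal diet its controls were at 5.94 and 26.4 CPM and the mannose livers at 26.5, 40.5 and 31.3 (interaction -3.98 ± 0.71, adjusted p = 0.00155). Serpina12, the adipokine vaspin, fell from 59.2, 113 and 103 to 23.2, 23.7 and 25.3 CPM on FAT-MASH, and on normal diet replicate 4 stood at 7.53 CPM against 81.1 in replicate 5 and 134, 126 and 116 with mannose (interaction -3.43 ± 0.73, adjusted p = 0.00667). Bhmt, which remethylates homocysteine, fell from 815, 1395 and 1945 to 265, 178 and 352 CPM on FAT-MASH (interaction -2.66 ± 0.57, adjusted p = 0.00709). Clec2h and Depp1 had interactions of -2.71 and -2.69.

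Rgs16, a G protein signalling regulator, fell from 169, 70.4 and 101 to 27.6, 23.9 and 10.8 CPM on FAT-MASH. On normal diet it had 0 counts in both controls and 0.85, 1.21 and 0.773 CPM with mannose, at least 13.7-fold higher when the control pair is set to 3 counts per library, and 0.734, 3.29 and 0.235 CPM in the first batch. With that floor its interaction was -6.23, against a fitted -10.8 (adjusted p = 0.00222) that depends on the zero. Among positive interactions, Dusp8, a MAP kinase phosphatase, rose from 4.2, 1.93 and 2.38 to 15, 12.9 and 11.5 CPM on FAT-MASH and had 6.15 and 2.65 CPM without, 1.8, 2.42 and 0.928 with mannose and 0.891, 0.502 and 1.41 in the first batch on normal diet (interaction 3.55 ± 0.51, adjusted p = 0.000288). Nrg1, the growth factor neuregulin 1, rose from 2.82, 4.4 and 5.16 to 18.9, 29.7 and 14.8 CPM on FAT-MASH and had 0.443 and 0.54 CPM without and 0.155, 0.232 and 0.412 with mannose on normal diet (interaction 3.24 ± 0.69, adjusted p = 0.00645). In all 11 fits without 1 library, the interaction call held for Rgs16, Slc22a7, Serpina12, Acpp, Adrb3, Depp1, Dusp8 and Nrg1. Clec2h and Bhmt lost the call in 1 to 7 of these fits: without normal-diet replicate 4 Clec2h had an adjusted p of 0.0814 and Bhmt of 0.0607. Leaving out 1 library moved an interaction by over 1.5 times to -5.97 for Serpina12 without normal-diet replicate 5. With the first-batch normal-diet livers as the control, Slc22a7, Acpp, Adrb3, Clec2h and Nrg1 kept the call (with the interaction moved to -2.65 for Slc22a7 and -1.87 for Adrb3), and it was lost at interactions of -1.81 for Rgs16, -2.22 for Serpina12, -1.09 for Depp1, -1.56 for Bhmt and 1.30 for Dusp8.

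In 9 genes (0.0421% of those tested) both effects and the interaction were called with opposite signs, 8 of them higher with mannose on FAT-MASH and lower on normal diet. Requiring a called difference favours opposite signs, so their number says nothing of how often the diets moved genes in opposite ways. Sik1, a kinase induced by cyclic AMP, rose on FAT-MASH from 8.61, 9.82 and 11.3 to 25.6, 26.6 and 24.2 CPM and fell on normal diet from 63.3 and 32.9 to 23.8, 19.9 and 19.6. Its interaction was 2.55 ± 0.29 (SE, adjusted p = 3.85e-05), the smallest p among the genes named here. Slc10a2, the apical bile acid transporter ASBT, rose from 18.9, 21.6 and 29 to 70.8, 61.1 and 51.4 CPM on FAT-MASH and fell from 58.4 and 28.1 to 19.1, 19.4 and 20 on normal diet (interaction 2.55 ± 0.32, adjusted p = 7.92e-05). Smad7, an inhibitor of TGF-beta signalling, rose from 14.1, 16 and 13.5 to 20, 22.8 and 31 CPM and fell from 35 and 25.5 to 13.8, 11.6 and 10.2 (interaction 2.11 ± 0.25, adjusted p = 5.37e-05). Id1, an inhibitor of differentiation factors, had 9.15, 15.3 and 9.68 CPM without and 17.7, 21.7 and 32.7 with mannose on FAT-MASH and 33 and 10.8 without and 6.96, 7.78 and 5.62 with mannose on normal diet (interaction 2.77 ± 0.46, adjusted p = 0.000868). The groups of both diets stood apart without overlap in each of these 4 genes. They were chosen because both effects were called, so that separation was favoured and is no further support.

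Acmsd, which diverts tryptophan breakdown away from NAD synthesis, rose from 8.95, 10.9 and 11.6 to 19.8, 20.7 and 14.8 CPM on FAT-MASH and fell from 79.2 and 37.2 to 25, 20.7 and 27.9 on normal diet (interaction 2.06 ± 0.33, adjusted p = 0.000693). Rnd3, a small GTPase of cell shape, rose from 16.8, 19.3 and 19.4 to 34.6, 37.1 and 39.6 CPM and fell from 31.7 and 45 to 16.5, 25.3 and 24 (interaction 1.81 ± 0.22, adjusted p = 6.50e-05). Fosl2, an AP-1 factor, rose from 13.4, 12.4 and 15.3 to 25.7, 29.9 and 22.6 CPM and fell from 18.8 and 16.6 to 10.2, 9.91 and 11.1 (interaction 1.69 ± 0.21, adjusted p = 7.92e-05). Ndc80, a kinetochore protein, rose from 0.0359, 0.227 and 0.476 to 1.99, 1.79 and 1.54 CPM on FAT-MASH. On normal diet it had 0.886 and 0.135 CPM without and 0 counts in all 3 livers with mannose, at least 6.6-fold lower with 3 counts per library as the floor. With that floor its interaction was 5.57, against a fitted 10.3 that depends on the zeros. Gstp3, a glutathione transferase, was the 1 gene that fell on FAT-MASH, from 18.9, 19 and 17.8 to 14.5, 12.3 and 14.5 CPM, and rose on normal diet, from 11.7 and 9.31 to 18.2, 16.1 and 16.1 (interaction -1.11 ± 0.18, adjusted p = 0.000668).

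Each of the 9 kept the interaction call with any 1 library left out, although Id1 was at 1.75 without normal-diet replicate 4, and the normal-diet side of the pattern depends on the control pair. The number of genes with opposite calls was 3 without normal-diet replicate 4 and 26 without replicate 5. It was 1 to 4 without FAT-MASH replicate 1 or 2, replicate 1 or 2 of FAT-MASH with mannose, or any replicate of normal diet with mannose. For 8 of the 9, the first-batch normal-diet mean was nearer to the livers with mannose than to the second-batch controls. The 9 were called with those controls, which favours this. The first-batch values were 10.9, 10.9 and 12.5 CPM for Smad7, 23.8, 22.9 and 16.7 for Slc10a2, 5.61, 4.62 and 5.85 for Id1 and 16.8, 18.2 and 19.4 for Gstp3. For Sik1 they were 37.9, 42.9 and 31.3 CPM, nearer in their mean to the second-batch controls. When the first-batch normal-diet livers served as the control, Sik1, Slc10a2, Acmsd, Rnd3, Fosl2 and Ndc80 kept the call (with the interaction moved to 1.52 for Slc10a2, 1.05 for Rnd3 and 1.09 for Fosl2), and it was lost at interactions of 0.71 for Smad7, 0.74 for Id1 and -0.32 for Gstp3.

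**Figure D5:**
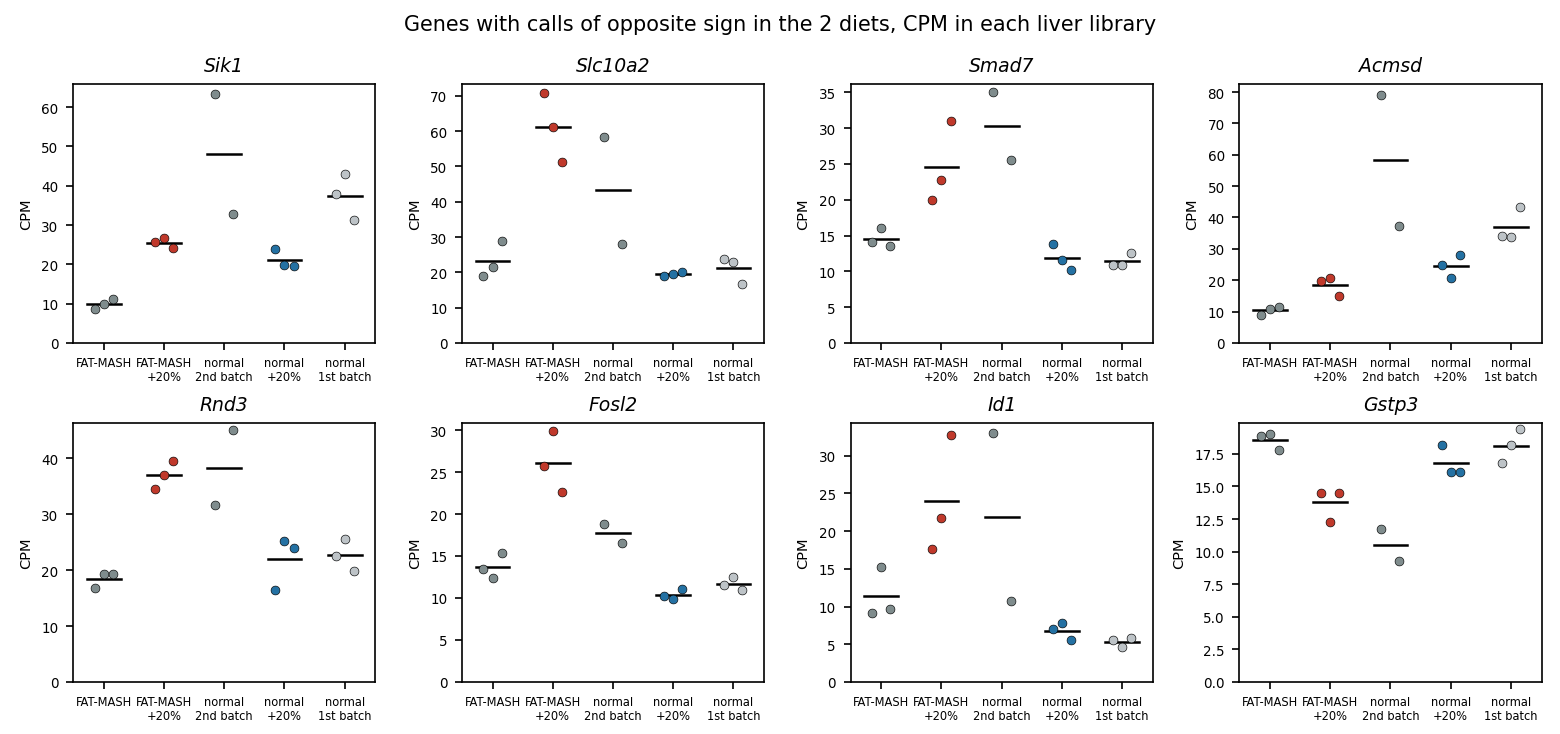
CPM in each liver library, by group, of 8 of the 9 genes called with opposite signs in the 2 diets, with horizontal lines at the group means. The first-batch normal-diet livers at the right lie close to the normal-diet livers with mannose for Slc10a2, Smad7, Rnd3, Fosl2, Id1 and Gstp3, and between the second-batch groups for Sik1 and Acmsd.

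Of the genes that moved most on normal diet, some were not called in the interaction. Slc39a4, the intestinal-type zinc importer ZIP4, rose on normal diet from 54.8 and 54.6 to 133, 117 and 107 CPM and on FAT-MASH from 78.9, 77 and 86.2 to 121, 129 and 92.4. The first-batch normal-diet livers had 58.5, 44.1 and 70.8 CPM, near the second-batch controls. Its interaction was -0.62 (95% interval -1.06 to -0.17, adjusted p = 0.0959). Tppp, a tubulin-binding protein, rose on normal diet from 9.6 and 8.64 to 23.2, 23.7 and 18 CPM, with 9.54, 6.64 and 8.94 without and 14.2, 10.6 and 10.7 with mannose on FAT-MASH and 11.4, 10.9 and 7.6 in the first-batch normal-diet livers (interaction -0.75, 95% interval -1.43 to -0.072). Cyp26a1, which degrades retinoic acid, fell on normal diet from 33.4 and 107 to 6.49, 11.8 and 9.2 CPM. On FAT-MASH it had 11.8, 7.44 and 11.1 CPM without and 3.47, 5.82 and 8.08 with mannose, where its estimate was also lower, and its interaction was 2.13 (95% interval 0.63 to 3.62). Cyp17a1, a steroidogenic hydroxylase, fell on normal diet from 10.2 and 3.28 to 1.75, 1.6 and 0.979 CPM (interaction 1.83, 95% interval 0.67 to 2.99). Leaving out each library in turn, the interaction ranged for Cyp26a1 from 1.07 without normal-diet replicate 5 to 2.73 without normal-diet replicate 4, called without normal-diet replicate 4 (adjusted p = 0.0436), and for Cyp17a1 from 0.80 without normal-diet replicate 4 to 2.44 without normal-diet replicate 5, called without normal-diet replicate 5 (adjusted p = 0.00844). Cyp26a1 was also called against the first-batch normal-diet livers, at 2.42 (adjusted p = 0.0479). Ppp1r10, a nuclear phosphatase regulator, fell on normal diet from 47.2 and 93 to 20, 28.7 and 19 CPM and had 21.1, 20.5 and 16.1 without and 23.4, 26.5 and 29.9 with mannose on FAT-MASH. It was called in the interaction at 2.10 ± 0.44 (SE, adjusted p = 0.0064), and had an adjusted p of 0.0511 without normal-diet replicate 5. Against the first-batch normal-diet livers it was 1.45 (adjusted p = 0.0519). Fgf21 and Gdf15, liver-derived stress hormones, had interactions of 1.51 (95% interval -0.49 to 3.51) and 0.21 (-0.69 to 1.11). With 1 library left out, the interaction ranged for Fgf21 from 0.45 without normal-diet replicate 4 to 2.22 without FAT-MASH replicate 1, and for Gdf15 from -0.098 without replicate 1 of normal diet with mannose to 0.70 without replicate 2 of normal diet with mannose. Fgf21 rose on FAT-MASH, from 21.7, 10.9 and 4.42 to 47.2, 69.7 and 16.9 CPM, and stood at 1.44 and 0.45 CPM without and 1.91, 1.13 and 0.515 with mannose on normal diet.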

How the data were processed

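Poly-A RNA from 25 mouse livers was sequenced, and 11 libraries enter the comparison. Per the submitters' processing notes and the file headers, the authors mapped reads to GRCm39 by STAR, and the deposited values are raw counts per GENCODE M31 gene made by featureCounts (version 2.0.6 in the notes, 2.0.1 in the header). The command in the header sets no strand, pair or multimapping option, so overlapping and antisense genes cannot be told apart and near-identical paralogs are uncertain. Among counts of 1 to 20, 75.6% to 82.1% were even in each library, so mates of a pair seem to be counted separately and counts are not independent molecules. Of 56980 gene IDs, 52073 matched a symbol.

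edgeR 4.0.16 (R 4.3.3) fitted quasi-likelihood models to the counts of all 25 libraries in 9 cells of group and batch, with TMM scaling and filterByExpr, which kept 21373 genes. P-values were Benjamini-Hochberg adjusted over all genes. The interaction is (FAT-MASH with 20% mannose minus FAT-MASH) minus (normal diet with 20% mannose minus normal diet). No replicate pair agreed within sampling noise (the lowest chi-square per degree of freedom was 21.25). The highest, 115.5, was that of the 2 second-batch normal-diet controls, against at most 61.74 in any other pair. In 1 simulated data set of 21373 genes, the interaction test recovered 38, 22, 24 and 39 of 50 genes changed by -2, -1, 1 and 2 on the log2 scale. Each gene had 1 mean and 1 spread in all groups, and only FAT-MASH with mannose was changed, at genes of at least 1 CPM. The simulation held no uneven control pair and no level near zero on normal diet alone, so it does not give the power in these data. Alternatives were DESeq2 1.42.0, limma 3.58.1 voom with quality weights, other scalings and filters, a replicate block, each library left out and, chosen after seeing the data, the first-batch normal-diet control, halved counts and both libraries that stood apart left out.

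The genes described were fixed genes of mannose, sugar and liver metabolism, the 10 largest interaction calls each way with a mean of at least 5 CPM, up to 6 opposite-sign genes each way, the 4 largest rises and falls on normal diet, and up to 4 list members with the smallest interaction p. Counts of 5 or fewer are named in full, except for items that are not reported here. The members and lists were chosen with earlier results of these data known. Promoter sequences and their coordinates are from RefSeq (GRCm38.p6). Gene coordinates are GRCm39.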

Additional observations from a re-analysis of the deposited data

Results flagged for a closer look

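The interaction is itself a test of whether the effect of mannose differed between the groups, and 1211 genes passed it in edgeR's quasi-likelihood test at an adjusted p under 0.05. The genes described above that passed it are gathered here with the log2 difference of each, FAT-MASH minus normal diet. For all of them the regimen and the batch cannot be told apart.

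Positive differences of at least 3 were those of Ndc80 10.3, Plk1 8.38, Cenpf 5.53, Ube2c 4.88, Cyp4a14 3.58, Dusp8 3.55, Top2a 3.53, Nrg1 3.24, Atf3 3.22, Mki67 3.13, Ccnd1 3.09, Psat1 3.06 and Gsta1 3.05. Those from 2 to 3 were Peg10 2.88, Id1 2.77, Gstm3 2.71, S100a9 2.62, Sik1 2.55, Slc10a2 2.55, Nr4a1 2.54, Mcm5 2.24, Cxcl10 2.12, Plk3 2.11, Smad7 2.11, Ppp1r10 2.10 and Acmsd 2.06. Values from 1 to 2 were found for Cyp2c55 1.82, Srxn1 1.82, Rnd3 1.81, Fosl2 1.69, Ehhadh 1.64, Relb 1.60, Acot1 1.5, Mcm6 1.47, Klf10 1.42, Mcm4 1.37, Nfkb2 1.35, Hmox1 1.32, Acot2 1.24, Hilpda 1.22, Gstm2 1.16, Anxa5 1.15, Hsd17b7 1.08, Axin2 1.07 and Por 1.04. The smallest positive ones were Zmat3 0.96, Krt8 0.89 and Crat 0.82. The fitted value of Ndc80 depends on 3 livers with 0 counts and was 5.57 with 3 counts per library as the floor, and that of Plk1 rests on very few counts.

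Negative differences beyond -3 were those of Rgs16 -10.8, H19 -6.43, Slc22a7 -3.98, Hsd3b5 -3.63, Serpina12 -3.43 and Acpp -3.09. Between -3 and -2 lay Adrb3 -2.96, Clec2h -2.71, Depp1 -2.69, Bhmt -2.66, Slc2a5 -2.49, Cyp2c54 -2.36 and Tsc22d3 -2.13. Between -2 and -1 lay Sds -1.97, Cyp2d9 -1.95, Fabp4 -1.90, Herpud1 -1.68, Slc10a1 -1.66, Hal -1.59, Nr0b2 -1.53, Cyp2c50 -1.5, Khk -1.44, Cyp2e1 -1.37, Slc37a4 -1.33, Pklr -1.29, Saa4 -1.28, Lipe -1.26, Serpina3n -1.21, Lipc -1.14, Gstp3 -1.11, Cyp2d22 -1.10, Akr1d1 -1.07, Nudt7 -1.04, Apoa2 -1.03 and Otc -1.03. Smaller negative differences were those of Gpt -0.99, Mlxipl -0.98, Hlf -0.98, Orm1 -0.97, Apoc3 -0.96, Slc27a5 -0.95, Pygl -0.94, Apoe -0.88, Serpina3m -0.84, Tk1 -0.81, Gckr -0.78, Dgat2 -0.78 and Fbp1 -0.76. The smallest were Shpk -0.75, Nr1h4 -0.73, Asl -0.73, Pcx -0.73, Slc2a9 -0.68, Ghr -0.67, Cebpa -0.66, Bdh1 -0.64, Ces2g -0.62, Shmt2 -0.59, Uroc1 -0.59, Sord -0.58, Acaa2 -0.55 and Crp -0.54. The fitted value of Rgs16 depends on 2 controls with 0 counts and was -6.23 with that floor.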

How the results depend on the processing

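Of the 109 genes chosen for description and called in the interaction, 32 kept the call under every alternative and all kept their sign under those giving a value. The alternatives share most or all libraries with the main fit, so kept signs were favoured. The interaction count was 830 to 1807 under the scaling, filter, limma voom, replicate block, first-batch control, halved-count and 11-library alternatives, 1819 with DESeq2 (1203 shared), 489 without both libraries that stood apart, and 524 to 1206 with 1 library left out. The FAT-MASH count was 1735 to 2730 with 1 library left out. The 32 normal-diet calls became 203 with DESeq2, 425 with no filter on low counts, 1451 with the first-batch control, 19 with halved counts, 16 without both libraries, 16 with the replicate block, 5 with only the 11 libraries, 2 with limma voom, 1 within its own batch and 3 to 131 with 1 library left out. The 9 opposite-sign genes became 25 with DESeq2, 107 with no filter, 5 with the replicate block, 3 without both libraries, 2 with only the 11 libraries, 1 with limma voom and 1 to 26 with 1 library left out. Same-sign calls numbered 14 with no filter and 0 or 1 with 1 library left out. Same-numbered samples did not deviate together (r from -0.024 to 0.043), so the numbers were not taken as pairs. The block gave 1019 interaction calls, 20 of the 109 genes lost theirs, and the cause was not tested.

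Signs reversed only for genes not called. Without both libraries the interaction was -0.51 for Col1a1, -7.71 for Gpnmb, -0.066 for Scd1 and -4 for Timp1. With the replicate block it was 0.16 for Fasn. With the first-batch control it was 0.95 for Fasn and 0.0079 for Tkfc, with library totals 0.20 for Fasn, and with limma voom -0.79 for Gpnmb. With 1 library left out, the range over the 11 fits was -0.062 to 1.47 for Col1a1, -0.30 to 0.39 for Fasn, -0.098 to 0.70 for Gdf15, -6.61 to 1.82 for Gpnmb, -0.77 to 0.061 for Pck1, -0.096 to 0.84 for Scd1 and -3.12 to 5.52 for Timp1. Of the 23 described genes not called, 12 were called in at least 1 alternative. Low counts limit the mitotic genes on normal diet, and the 2 controls limit every normal-diet estimate.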
